A study of Bos taurus with 14 samples.

Results

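DNAJB1 encodes a heat shock cochaperone of the HSP40 family. It was followed here in bovine endometrium under the 2 Ensembl gene identifiers ENSBTAG00000016874 and ENSBTAG00000045858, out of 24616 genes in the count table. Both were chosen by their symbol in the study's list of genes that differed between sPIF and Control explants, so they were selected on that contrast in these same libraries. Their difference between sPIF and Control is therefore given as a description without a test. Tests are given only for lane, for progesterone group, for a change of the sPIF difference with either, and for outlying values within a group.

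HSP40 proteins carry a J domain that binds HSP70 and stimulates its ATPase activity, so that HSP70 closes on an unfolded client protein. DNAJB1 is a mainly cytosolic member of the family, and its transcription is induced by heat shock factor 1 when unfolded proteins accumulate. The level of its mRNA is a common readout of the heat shock response, which also covers HSP70, small heat shock proteins and, for collagen-producing cells, the collagen chaperone SERPINH1.

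The study cultured intercaruncular endometrial explants from 7 heifers, collected after slaughter with a regressing corpus luteum, and sequenced 1 Control and 1 sPIF explant of each animal. The sPIF explants received 100 nM of sPIF, a synthetic form of the embryo-derived peptide preimplantation factor, for 24 h and again in fresh medium for 6 h, and the Control explants received the same volume of the DMSO vehicle over the same 30 h. Libraries of cows 1 to 4 were sequenced in lane 1 and those of cows 5 to 7 in lane 2, where counts of repeated runs had been added. Cows 2 to 5 formed the high progesterone group (n = 4) and cows 1, 6 and 7 the low progesterone group (n = 3), by serum concentration. Each explant was whole tissue of mixed cell types cultured outside the animal, so fewer cells of a type and less RNA per cell cannot be told apart. No uncultured tissue was analysed here. Control libraries held 15885642 to 25771250 counts in total, and sPIF libraries 16377453 to 28625724.

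The identifiers differed widely in the number of reads assigned to them. ENSBTAG00000016874 held between 2137 and 11092 counts per library, and ENSBTAG00000045858 between 14 and 111. The first is called the high-count identifier and the second the low-count identifier in what follows. Both had at least 10 counts in all 14 libraries and so entered the 13233 genes tested. The RefSeq table of the ARS-UCD2.0 assembly lists 1 gene with the symbol DNAJB1 and pairs 0 of the 24616 Ensembl identifiers with a symbol, so how the identifiers relate to that gene was not analysed here. Reads of closely similar copies could have been divided between them, or dropped, in the authors' counting, and the values of either identifier alone are uncertain to that extent.

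In the Control explants of cows 1 to 7 the high-count identifier had 131, 237, 199, 658, 566, 568.2 and 231 CPM, which are counts scaled to a common library size with TMM factors. In the sPIF explants of the same cows it had 114, 157, 202, 162, 173, 152 and 190.0 CPM. Control explants of cows 4, 5 and 6 stood well above all other libraries, while the remaining 4 Control explants lay near the sPIF explants. The groups overlapped, since the Control explants of cows 1 and 3 were below the highest sPIF explant. Levels were 370.1 ± 218 CPM (SD, n = 7 cows) in Control and 164 ± 28.4 CPM (SD, n = 7 cows) in sPIF.

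The low-count identifier had 14, 46, 45, 111, 71, 93 and 61 counts in the Control explants of cows 1 to 7, which is 0.855, 2.35, 1.65, 6.59, 3.92, 5.15 and 3.76 CPM. In sPIF it had 21, 32, 24, 41, 24, 18 and 30 counts, or 1.00, 1.90, 1.25, 1.62, 0.823, 0.919 and 1.30 CPM. Its highest Control libraries were again those of cows 4, 6 and 5, followed closely by cow 7, and its lowest Control library was that of cow 1. The mean was 3.47 ± 2.01 CPM (SD, n = 7 cows) in Control and 1.26 ± 0.391 CPM (SD, n = 7 cows) in sPIF, with overlap between the groups through cows 1 and 3. Counting error was large at this depth. The 14 Control counts of cow 1 have an exact 95% Poisson interval of 7.65 to 23.5 and its 21 sPIF counts one of 13.0 to 32.1, so the direction in that cow was not detectable. The Control and sPIF intervals also overlapped in cow 2 (33.7 to 61.4 against 21.9 to 45.2) and cow 3 (32.8 to 60.2 against 15.4 to 35.7). These intervals cover counting error only and are not scaled for library size.

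Summed over both identifiers, DNAJB1 had 374 ± 220 CPM (SD, n = 7 cows) in Control, with a lowest value of 131, a median of 239.8 and a highest value of 665. In sPIF it had 166 ± 28.5 CPM (SD, n = 7 cows), with a lowest value of 115, a median of 164 and a highest value of 203. The sum differed little from the high-count identifier, which supplied nearly all of its reads.

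**Figure D1:**
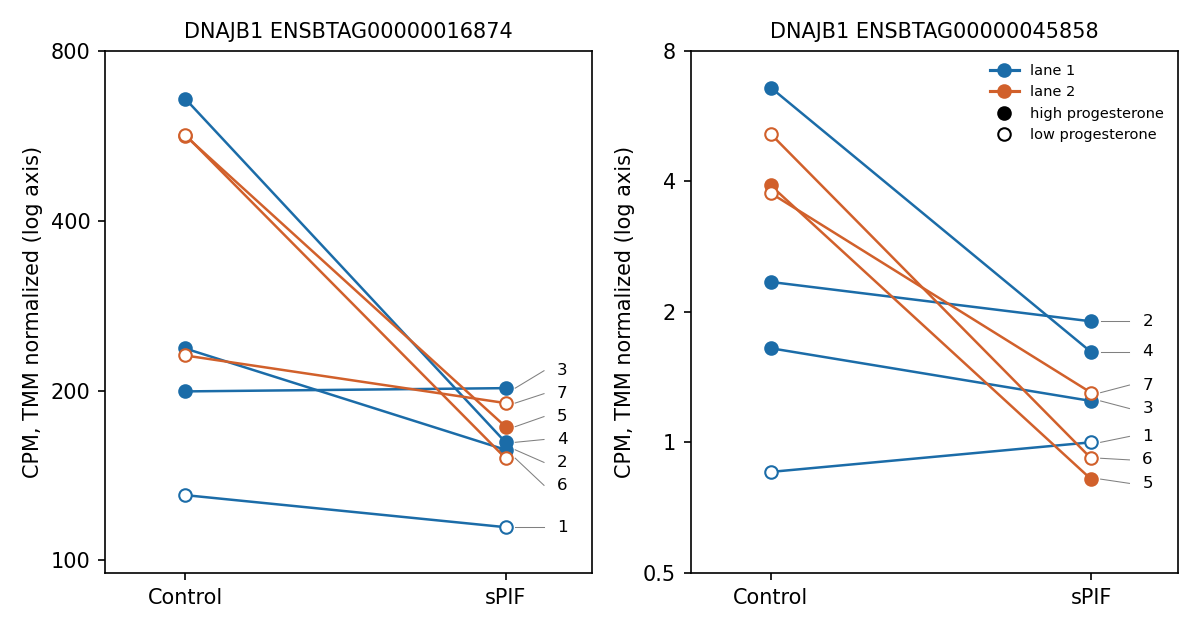
CPM of the high-count (left) and low-count (right) DNAJB1 identifier on log axes, with 1 line per cow joining its Control and sPIF explants, colour for lane and filled points for high progesterone. For the high-count identifier the Control explants of cows 4, 5 and 6 lie between 566 and 658 CPM and the sPIF explants of all 7 cows between 114 and 202 CPM.

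Within cows, the sPIF minus Control difference of the high-count identifier on the log2 CPM scale was -0.19, -0.60, 0.02, -2.02, -1.71, -1.90 and -0.28 in cows 1 to 7. It was lower in sPIF in 6 of 7 cows and close to 0 in cow 3. In cow 4 the Control CPM was 4.07 times that in sPIF, against 1.14 times in cow 1. The 7 differences thus separated into cows 4, 5 and 6, at -1.71 or lower, and the others, at -0.60 or higher. Both lanes and both progesterone groups were represented among the cows on either side of this gap.

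The low-count identifier had within-cow log2 differences of 0.21, -0.29, -0.38, -1.96, -2.12, -2.37 and -1.46. It was lower in sPIF in 6 of 7 cows, though in cows 2 and 3 the counting intervals of Control and sPIF overlapped. Cow 7 joined cows 4, 5 and 6 at the lower end. For the sum the differences ranged from -2.02 to 0.02 with a median of -0.59. In edgeR's quasi-likelihood fit with cow as a block, the log2 fold change under sPIF was -0.95 (SE 0.28) for the high-count identifier, -1.31 (SE 0.34) for the low-count identifier and -0.96 (SE 0.28) for the sum. Ordered from the lowest log2 fold change of the 13233 genes, the high-count identifier came 20th and the low-count identifier 5th, in the contrast that chose them.

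For that contrast edgeR called 0 of the 13233 genes at a Benjamini-Hochberg adjusted p under 0.1 (0%), and 1061 genes were under 0.05 before adjustment. By DESeq2 100 genes were called (0.756%). These counts are given as background for all genes, and no call is given for DNAJB1, because it was selected on the same contrast.

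The spread of DNAJB1 between cows also differed between the groups. The SD of log2 CPM between cows for the high-count identifier was 0.91 in Control and 0.27 in sPIF, while the median gene had 0.38 in Control and 0.37 in sPIF. Of the 13233 genes, 39 (0.295%) had a lower ratio of the sPIF SD to the Control SD. For the low-count identifier the SDs were 0.98 and 0.41, and 291 genes had a lower ratio. In Control 958 genes had a higher SD than the high-count and 740 a higher SD than the low-count identifier. In sPIF 9509 genes had a higher SD than the high-count identifier and 5768 than the low-count identifier, which remained slightly more variable than the median gene. The SDs use the same libraries as the choice of the gene and were not tested.

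Cows with a higher Control level had lower within-cow differences. Over the 7 cows, Pearson's r between the Control log2 CPM and the difference was -0.957 for the high-count and -0.919 for the low-count identifier. The Control value enters both measures, so the points are linked by construction. In 5 of 7 cows the sPIF library had more counts than the Control library, and the within-cow difference of the high-count identifier had r = -0.453 (Spearman's rho -0.536, n = 7 cows) with the log2 ratio of sPIF to Control total counts. In the cows with the lowest differences this ratio was 1.44 (cow 4), 1.54 (cow 5) and 1.09 (cow 6), and in cow 7, with a difference of only -0.28, it was 1.44. The part of depth in the DNAJB1 differences was not tested.

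The low-count identifier took 0.861% ± 0.291 (SD, n = 14 libraries) of the DNAJB1 counts, without correction for gene length. Its share was lowest in the sPIF explant of cow 5, at 0.475% (exact Clopper-Pearson 95% interval 0.304 to 0.705), and highest in the Control explant of cow 7, at 1.60% (1.23 to 2.05). In Control the share was 0.947% ± 0.318 (SD, n = 7 cows) and in sPIF 0.775% ± 0.254 (SD, n = 7 cows). Paired by cow, it was lower in sPIF in 5 of 7 cows, with a mean difference of -0.172 ± 0.390 percentage points (SD, n = 7 cows). It was lower in all 3 cows of lane 2, from 0.687% to 0.475%, from 0.898% to 0.602% and from 1.60% to 0.681%. The exact 95% intervals of Control and sPIF overlapped in cow 5 (0.537 to 0.866 against 0.304 to 0.705). They also overlapped in cow 6 (0.726 to 1.10 against 0.357 to 0.950), but not in cow 7 (1.23 to 2.05 against 0.460 to 0.971). In lane 1 the share was lower in 2 of the 4 cows, of which cow 4 was at -0.0019 points. The difference averaged 0.056 ± 0.204 points (SD, n = 4 cows) in lane 1 and -0.477 ± 0.388 points (SD, n = 3 cows) in lane 2, with p = 0.0571 in a two-sided exact permutation test that was added after these values were seen. The mean over all cows and that of lane 2 rested largely on cow 7, at -0.922 points, and without it they were -0.047 ± 0.227 (SD, n = 6 cows) and -0.254 points. Averaged over both explants of a cow, lane 1 had a share of 0.888% ± 0.179 (SD, n = 4 cows) and lane 2 one of 0.824% ± 0.288 (SD, n = 3 cows), with p = 0.743 in a two-sided exact permutation test that used all 35 ways to split the cows into 4 and 3. It was 0.844% ± 0.235 (SD, n = 4 cows) with high and 0.884% ± 0.224 (SD, n = 3 cows) with low progesterone (exact two-sided permutation test, p = 0.857). The within-cow difference of the share averaged -0.051 ± 0.205 points (SD, n = 4 cows) with high progesterone. With low progesterone, the group of cow 7, it averaged -0.334 ± 0.570 points (SD, n = 3 cows; exact two-sided permutation test, p = 0.429).

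The identifiers were more closely correlated over the Control libraries than over the sPIF libraries, a difference that was not tested. Pearson's r between their log2 CPM was 0.893 (Spearman's rho 0.820) over the 14 libraries, which share cows in pairs, and 2 of 13232 other genes had a higher r with the high-count identifier. This r includes the difference between sPIF and Control on which both identifiers were selected. Over the 7 Control libraries r was 0.907 (rho 0.964), and 45 other genes had a higher r. Among the 7 sPIF libraries r was 0.188 (rho 0.107), and 4371 other genes had a higher r. In sPIF the low-count identifier had only 18 to 41 counts and an SD of 0.41 in log2 CPM. The part of counting error in this r was not tested. Over the 7 within-cow differences r was 0.848 (rho 0.714), and 114 of the 13232 other genes had a higher r there.

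Lane was compared because cows 1 to 4 and cows 5 to 7 were sequenced apart, and no cow was in both lanes, so lane and animal cannot be told apart. For the high-count identifier the order of the levels was Control in lane 2 (455 ± 194 CPM, SD, n = 3 cows), Control in lane 1 (306 ± 239, SD, n = 4 cows), sPIF in lane 2 (171 ± 19.2, SD, n = 3 cows) and sPIF in lane 1 (159 ± 35.8, SD, n = 4 cows). Neighbours in this order did not differ beyond their spread. The low-count identifier had 4.28 ± 0.761 CPM (SD, n = 3 cows) in Control and 1.02 ± 0.254 (SD, n = 3 cows) in sPIF in lane 2. In lane 1 it had 2.86 ± 2.56 CPM (SD, n = 4 cows) in Control and 1.44 ± 0.398 (SD, n = 4 cows) in sPIF. The sPIF contrast chose the gene, so these levels by treatment are a description.

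On counts summed per animal, edgeR called 0 of the 2 DNAJB1 identifiers between lanes at an adjusted p under 0.1, against 39.6% of all genes tested (5235 of 13233). DESeq2 called 0 of the 2, against 42.6% of all genes (5637), and at an unadjusted p under 0.05 edgeR passed 0 of the 2, against 42.1% (5574). The log2 difference, lane 2 minus lane 1, was 0.40 (SE 0.35, edgeR adjusted p = 0.420) for the high-count identifier, 0.23 (SE 0.43, adjusted p = 0.718) for the low-count identifier and 0.40 (SE 0.35, adjusted p = 0.422) for the sum. On the cow means of log2 CPM the exact two-sided permutation test gave p = 0.286 for the high-count and p = 0.629 for the low-count identifier, with 0.0286 as the smallest p the 35 splits allow. Without cow 4, the lane 1 animal with the highest Control level, edgeR's lane difference of the high-count identifier was 0.74 with an adjusted p of 0.081, past the threshold, where the alternatives together ranged from 0.081 to 0.693. Without cow 1 the difference of the low-count identifier was -0.01. In the Control explants alone the lane difference was 0.55 (SE 0.55, edgeR adjusted p = 0.519) for the high-count and 0.57 (SE 0.60, edgeR adjusted p = 0.546) for the low-count identifier.

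Progesterone group was compared because the cows differed in serum progesterone although all were staged alike by ovarian morphology. In Control the high-count identifier had 415 ± 231 CPM (SD, n = 4 cows) in the high and 310 ± 229 CPM (SD, n = 3 cows) in the low progesterone group. In sPIF these were 173 ± 20.1 CPM (SD, n = 4 cows) and 152 ± 37.8 CPM (SD, n = 3 cows). The groups overlapped in both treatments. They were also unevenly spread over the lanes, with 3 of 4 high progesterone cows in lane 1 and 2 of 3 low progesterone cows in lane 2. The low-count identifier had 3.63 ± 2.19 (SD, n = 4 cows) against 3.26 ± 2.19 CPM (SD, n = 3 cows) in Control, and 1.397 ± 0.468 (SD, n = 4 cows) against 1.07 ± 0.202 CPM (SD, n = 3 cows) in sPIF, high against low.

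On counts summed per cow, the log2 difference of high minus low progesterone was 0.28 (SE 0.37, edgeR adjusted p = 0.865) for the high-count identifier, 0.18 (SE 0.44, adjusted p = 0.922) for the low-count identifier and 0.28 (SE 0.37, adjusted p = 0.866) for the sum. The exact two-sided permutation test on cow means of log2 CPM gave p = 0.486 and p = 0.600 for the high-count and low-count identifier. Neither identifier was called by edgeR, which called 0 of 13233 genes (0%) with 458 at an unadjusted p under 0.05, or by DESeq2, which called 24 genes (0.181%). The direction rested on single animals. Without cow 1, which had the lowest Control and sPIF levels of the high-count identifier, the difference was -0.02 for the high-count and -0.17 for the low-count identifier, and without cow 4 it was -0.13 for the low-count identifier. In the Control explants alone it was 0.45 (SE 0.57) for the high-count and 0.17 (SE 0.64) for the low-count identifier. With lane as a term in the fit, an alternative added after the data were seen, the difference was 0.67 (SE 0.36) for the high-count and 0.50 (SE 0.55) for the low-count identifier, with an edgeR adjusted p of 1.00 for both, and 0 genes were called, with 556 at an unadjusted p under 0.05.

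The study asked whether the response to sPIF differed between lanes. For the high-count identifier the within-cow log2 difference averaged -0.70 ± 0.92 in the 4 cows of lane 1 and -1.30 ± 0.89 in the 3 cows of lane 2 (SD between cows). For the low-count identifier it averaged -0.61 ± 0.94 and -1.98 ± 0.47 in the same order, and cow 4 of lane 1, at -1.96, lay within the range of lane 2. The difference of the sPIF log2 fold changes, lane 2 minus lane 1, was -0.63 (SE 0.54, edgeR adjusted p = 0.669) for the high-count identifier, -1.36 (SE 0.55, adjusted p = 0.415) for the low-count identifier and -0.64 (SE 0.54, adjusted p = 0.663) for the sum. The low-count identifier was among the 1516 genes (11.5%) under 0.05 in edgeR before adjustment, but not once cow 1, 2, 3, 5 or 6 was left out. It was under 0.05 without cow 7 (edgeR unadjusted p = 0.0327) and without cow 4 (edgeR unadjusted p = 0.00188). Without cow 4 the high-count identifier was also under 0.05 (edgeR unadjusted p = 0.0349). After adjustment edgeR called 0 of 13233 genes (0%). The exact two-sided permutation test of the 7 differences gave p = 0.400 for the high-count and p = 0.0857 for the low-count identifier. Over the 22 exact tests made on DNAJB1, the lowest p after Benjamini-Hochberg adjustment was 0.817. DESeq2 called 175 genes (1.32%) for this interaction, without the high-count identifier, and gave the low-count identifier no adjusted p. Leaving out single cows moved the interaction of the high-count identifier from -0.63 to -1.13 (without cow 7), -1.06 (without cow 4), -0.32 (without cow 6), -0.38 (without cow 3) or -0.41 (without cow 5), and that of the low-count identifier from -1.36 to between -1.11 (without cow 1) and -1.88 (without cow 4). In edgeR none of these passed the threshold after adjustment. On simulated counts the edgeR test of this interaction recovered few changes, so a missing call says little about whether the lanes differed.

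For progesterone the within-cow log2 differences of the high-count identifier averaged -1.08 ± 0.95 (SD, n = 4 cows) in the high and -0.79 ± 0.96 (SD, n = 3 cows) in the low group. Those of the low-count identifier averaged -1.19 ± 0.99 (SD, n = 4 cows) and -1.21 ± 1.30 (SD, n = 3 cows). In edgeR the sPIF log2 fold change, high minus low, differed by -0.30 (SE 0.58, adjusted p = 1.00) for the high-count identifier and by 0.09 (SE 0.73, adjusted p = 1.00) for the low-count identifier. The exact two-sided permutation tests gave p = 0.743 and p = 1.00. Neither was called, as for all 13233 genes in edgeR (0%, with 188 at an unadjusted p under 0.05), and DESeq2 called 0 genes (0%). With the interaction of sPIF with lane added to the fit, also after the data were seen, the values were -0.65 (SE 0.58) and -0.70 (SE 0.62), so the sign for the low-count identifier turned. Its sign also turned without cow 2 (-0.23), cow 3 (-0.17), cow 6 (-0.51) or cow 7 (-0.004), and that of the high-count identifier without cow 4 (0.02), while without cow 6 the latter was -0.85. No direction is read from these values. Standard errors of this size cover sizeable differences in either direction.

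Other genes of protein folding could be set beside DNAJB1 only where the study's list gave their symbol, so all of these were selected on the sPIF contrast too. None of 11 HSP70 chaperones, 40 J-domain cochaperones, 12 HSP90 chaperones and cochaperones, 8 small heat shock proteins and 5 heat shock factors could be matched to an identifier, and they were not analysed here. Matched were the HSP70-like endoplasmic reticulum chaperone HYOU1, the collagen chaperone SERPINH1, the disulfide-forming oxidase ERO1B, the phosphatase subunit PPP1R15A, which reverses the translation block of the stress response, and the signalling adaptor TRAF2. Under sPIF all 5 of these genes had a log2 fold change below 0, with a median of -0.61, against a median of 0.00 over all genes tested, of which 49.7% were below 0. That direction is not independent evidence, given how the genes were chosen.

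Of these 5 genes, 3 were called between lanes, all of them higher in lane 2, in the same edgeR test that called 39.6% of genes. Among the 5, 1 had a log2 difference below 0, at -0.38, and was not called. HYOU1 had a log2 difference of 0.75 (SE 0.22, adjusted p = 0.0325), PPP1R15A of 0.75 (SE 0.23, adjusted p = 0.0391) and TRAF2 of 0.83 (SE 0.14, adjusted p = 0.00460). The smooth muscle marker CNN1 was called in the same direction, with a log2 difference of 1.28 (SE 0.36, adjusted p = 0.0298) and Control levels of 48.5 ± 28.0 CPM (SD, n = 4 cows) in lane 1 and 117 ± 36.3 CPM (SD, n = 3 cows) in lane 2, and its part in the lane differences was not tested. Whether DNAJB1 differed from these genes in this respect was not tested. None of the 5 was called by edgeR for progesterone group (lowest adjusted p = 0.852) or for the interaction of sPIF with lane (lowest adjusted p = 0.406). In both of these tests edgeR called 0 of all 13233 genes (0%).

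The within-cow pattern of DNAJB1 was shared to different degrees by these genes. HYOU1 had its lowest log2 differences in cows 6 (-1.30), 5 (-1.02) and 4 (-0.88), the animals in which the high-count DNAJB1 identifier also had its lowest differences, and was near 0 in cow 7 (-0.03). In cow 3, where the high-count DNAJB1 identifier was at 0.02, HYOU1 was at -0.70, and in cow 2 it was at -0.47. In cow 1 HYOU1 was at 0.14 and the high-count DNAJB1 identifier at -0.19. PPP1R15A had its lowest differences in cows 6 (-0.76), 5 (-0.75) and 7 (-0.50) and was at -0.34 in cow 4. SERPINH1 was low in cows 3, 4 and 6 (-1.29, -1.30 and -1.40) but at 0.22 in cow 5. ERO1B and TRAF2 were below 0 in all 7 cows, with narrow ranges of -0.88 to -0.07 and -0.64 to -0.11. Over the 7 differences, r with summed DNAJB1 was 0.784 for HYOU1 (0.710 without cow 6 to 0.939 without cow 3, Spearman's rho 0.679), 0.546 for PPP1R15A, 0.155 for SERPINH1, 0.130 for TRAF2 and -0.083 for ERO1B.

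**Figure D2:**
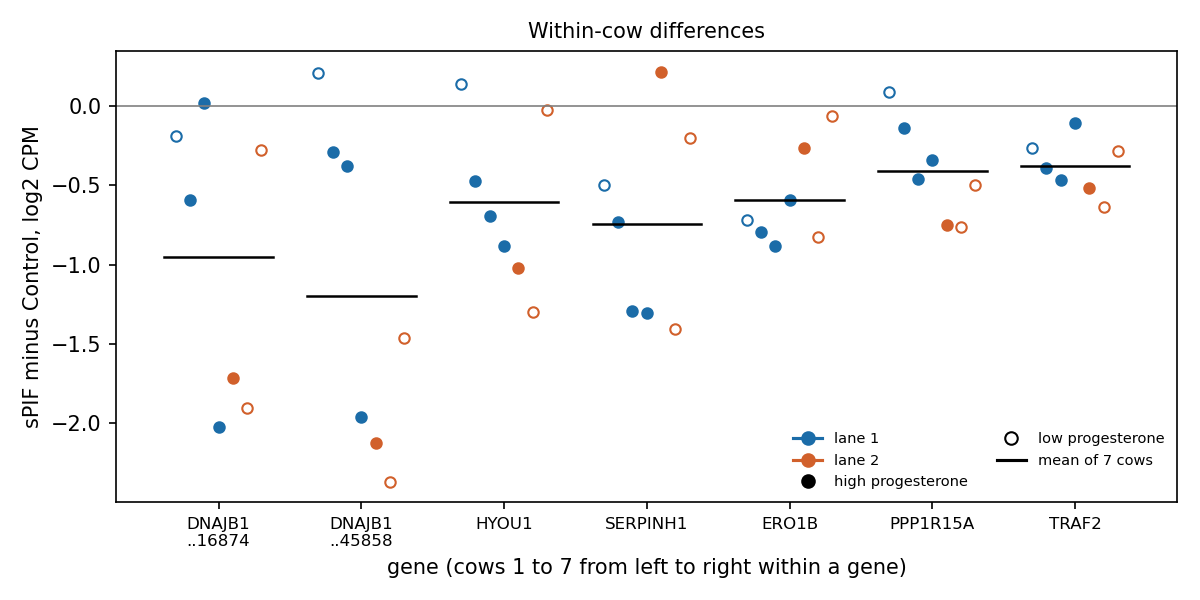
Within-cow differences, sPIF minus Control in log2 CPM, for both DNAJB1 identifiers and 5 protein folding and stress genes, with 1 point per cow and a bar at the mean of 7 cows. The high-count DNAJB1 identifier spans -2.02 to 0.02 with a gap between cows 4, 5 and 6 and the rest, while TRAF2 spans -0.64 to -0.11.

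Genes with a pattern most like that of summed DNAJB1 were named by Pearson's r of log2 CPM over the 14 libraries, among the 84 other tested genes with a symbol, all of which come from the same list. They were the stress-activated kinase MAPK11 (r = 0.798), HYOU1 (0.760), the adhesion molecule VCAM1 (0.754), the transcription factor TWIST1 (0.747) and the gap junction protein GJC1 (0.742). Each also had a lower mean in sPIF, which the choice of the list brings into r. Over the 7 within-cow differences, the 5 most alike were AMIGO3 (r = 0.862), the macrophage growth factor CSF1 (0.858), the sterol synthesis enzyme SQLE (0.837), HYOU1 (0.784) and the tropomyosin TPM2 (0.753). HYOU1 was the only gene in both sets. SQLE had log2 differences above 0 in all 7 cows, from 0.01 to 0.45, and was least above 0 where DNAJB1 was most below it.

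Many genes without a symbol were closer to DNAJB1 than these. Of 13231 other genes, 16 had r above 0.8 over the 14 libraries, none of them with a symbol, and over the within-cow differences 44 had r above 0.9. The closest over the differences, chosen after its values were seen, was ENSBTAG00000025441 (r = 0.998), which the tables used here do not pair with a symbol. Its log2 differences in cows 1 to 7 were -0.18, -0.61, 0.37, -3.00, -2.43, -2.72 and -0.25, so that it followed the high-count DNAJB1 identifier cow by cow with a wider range. Its Control level was 3299, 3774 and 1464 CPM in cows 4, 5 and 6 and its sPIF level 413, 699 and 222 CPM. The closest over the 14 libraries, ENSBTAG00000007662 (r = 0.908), was also chosen in this way. It had 3672 CPM in the Control explant of cow 4 and 3195 CPM in that of cow 6, against 789 to 1843 CPM in the other Control explants and 755 to 1344 CPM in sPIF. These genes were the highest of 13231 ranked over 7 differences or 14 libraries, and how high r would reach by chance was not tested. The values of r are given as a description.

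Cell type markers could be matched for smooth muscle only, by 1 of 6 genes (CNN1, calponin), and for 0 of 7 epithelial, 0 of 8 stromal, 0 of 5 endothelial and 0 of 8 leukocyte markers, so the tissue label was not checked against its markers. CNN1 had 77.9 ± 46.6 CPM (SD, n = 7 cows) in Control and 49.2 ± 34.1 CPM (SD, n = 7 cows) in sPIF, and its within-cow log2 difference lay below 0 in all 7 cows, from -1.36 in cow 3 to -0.17 in cow 2. It belongs to the same selected list. Its r with summed DNAJB1 was 0.578 over the 14 libraries and 0.205 over the 7 differences, and in cow 3, where CNN1 was lowest against Control, the high-count DNAJB1 identifier was at 0.02. The part of cell composition in the DNAJB1 values was not tested.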

How the data were processed

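The authors trimmed paired-end reads, aligned them to the UMD3.1 assembly and counted them on Ensembl genes; the submitters' processing notes name FastQC, Trimmomatic 0.36.0, Bowtie2 2.2.6, featureCounts 1.4.6 and DESeq2. The deposited values are raw read counts for 24616 genes in 14 libraries. How reads matching several genes were counted is not given in the sources used here. A last row of column totals was left out. Lane, progesterone group, dose and culture times were taken from the study's methods and results. Symbols came from its list of 102 identifiers, 89 of them with a symbol and 27 written with an extra 0 that was removed.

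The 13233 genes that reached 10 counts in all 14 libraries entered edgeR 4.0.16 in R 4.3.3, using TMM factors, the quasi-likelihood test and Benjamini-Hochberg adjustment over all genes tested, with a threshold of 0.1. The sPIF difference and its interactions had cow as a block. For lane and progesterone group, the counts of each animal were added first. For the summed DNAJB1, the sum replaced both identifiers in the table. Log2 CPM used a prior count of 2. Exact permutation tests used all 35 splits of the 7 cows into 4 and 3, in Python 3.11.15 with scipy 1.17.1. Explants were paired by the number in their labels, which the study's methods tie to the animal, and replicates are different animals. Over all genes tested, Control and sPIF deviations from the group means correlated within animals at 0.412 to 0.764 (median 0.667).

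The genes and lists were chosen with earlier results of these data known. Genes were named by the study's protein processing list, by the 5 highest correlations with summed DNAJB1 over libraries and the 5 highest over within-cow differences among genes with a symbol, and by matched list members. Alternatives were DESeq2 1.42.0, median of ratios or no scaling factors, weaker count filters, no block for cow, each lane or Control alone, and each cow left out. A lane term in the progesterone fits was added after the data were seen. The tests of sPIF and of its interaction with lane were checked on simulated counts, where the interaction test recovered far fewer changes than the sPIF test.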

Additional observations from a re-analysis of the deposited data

Results flagged for a closer look

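The share of DNAJB1 counts on ENSBTAG00000045858 in the Control explant of cow 7, at 1.60%, stood apart from the other 6 Control explants, which lay between 0.651% and 0.991%. Its gap to the nearest explant, divided by the range of the group, was 0.643 against Dixon's limit of 0.568 for 7 samples. It rests on 61 of 3805 counts. Of 29 groups of 7 values checked in this way, chance alone would give about 1.45 such cases.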

How the results depend on the processing

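The sPIF difference of each DNAJB1 identifier and of their sum was negative under each alternative run. The identifiers were selected on this contrast in these same libraries, so the shared sign is a description and not independent evidence. Without the block for cow, which pairs the explants, the sPIF difference was -1.17 for ENSBTAG00000016874, -1.46 for ENSBTAG00000045858 and -1.17 for the sum. In that fit edgeR again called 0 genes. In lane 1 alone the sPIF difference was -0.68 for ENSBTAG00000016874 and -0.70 for ENSBTAG00000045858. In lane 2 alone these were -1.30 and -2.06. DESeq2 called 100 genes for sPIF, 24 for progesterone and 175 for the interaction of sPIF with lane, against 0 each in edgeR; the cause was not tested.

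Leaving out each cow in turn, the lane difference ranged from 0.19 to 0.74 for ENSBTAG00000016874, from -0.012 to 0.66 for ENSBTAG00000045858 and from 0.19 to 0.74 for the sum, with adjusted p over all its alternatives from 0.081 to 0.693 for the first. The progesterone difference ranged from -0.021 to 0.74, from -0.17 to 0.52 and from -0.022 to 0.74. The interaction of sPIF with progesterone ranged from -0.85 to 0.020, from -0.51 to 0.70 and from -0.84 to 0.024. These fits have fewer animals. The interaction with lane ranged from -1.13 to -0.32, from -1.88 to -1.11 and from -1.14 to -0.33, and its adjusted p, where given, did not pass the threshold. With lane terms added after the data were seen, the interaction with progesterone was -0.70 for ENSBTAG00000045858, against 0.09; the cause was not tested. Depth limits ENSBTAG00000045858 more than ENSBTAG00000016874, with 14 to 111 against 2137 to 11092 counts per library.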
